A study of Mus musculus with 18 samples.

Results

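Secreted inhibitors of Wnt signalling were followed through the postnatal maturation of the mouse heart in single-cell RNA-seq data. The 7 genes were Sfrp1, Sfrp2, Sfrp5, Frzb, Wif1, Dkk2 and Dkk3. They are 7 of the 35808 genes in the count matrices, and their columns were read by Ensembl identifier in all 18 chips. The members were listed by name, with the change of Sfrp1 after P4 already known, so the levels of Sfrp1 between stages are described here and not tested. The wild-type cells came from hearts of Myh6/Esr1-Tomato mice at P4 (2 animals), P7 (2 animals), P14 (2 animals) and P28 (5 animals). The knockdown cells came from hearts of the same labelled strain at P28 Adult, from 2 animals given lentivirus with a hairpin against Jun (shJun) and 2 animals given a non-targeting hairpin (shNT), injected into the myocardium at P1. In this strain the Myh6 promoter, active in cardiomyocytes (CMs), drives a tamoxifen-dependent Cre that switches on tdTomato, and tamoxifen was given to the mothers after birth. P4 and P7 ventricles, including pieces taken near the auricle, were chopped and digested with a kit, whereas P14 and P28 hearts were perfused by the Langendorff technique. Digestion therefore changed together with age between P7 and P14, and the contributions of these differences cannot be told apart.

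Wnt ligands signal by bringing together a Frizzled receptor and the co-receptors Lrp5 or Lrp6, which stabilises beta-catenin. Secreted frizzled-related proteins (Sfrp1, Sfrp2, Sfrp5 and Frzb) carry a cysteine-rich domain like that of Frizzled and bind Wnt ligands outside the cell, and Wif1 also binds Wnt ligands. Dickkopf proteins act on the co-receptors: Dkk2 binds Lrp5 and Lrp6, while Dkk3 is the divergent member of its family. In the heart, these proteins are known chiefly as products of stromal cells, and Wnt signalling shapes both heart formation and the response of fibroblasts to injury.

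In the mm10 build, with gene spans from GENCODE vM21, Sfrp1 (ENSMUSG00000031548) lies on chromosome 8 from 23411502 to 23449632, plus strand. Sfrp2 (ENSMUSG00000027996) lies on chromosome 3 from 83766321 to 83774316, plus strand. Sfrp5 (ENSMUSG00000018822) lies on chromosome 19 from 42197971 to 42202252, minus strand, and Frzb (ENSMUSG00000027004) on chromosome 2 from 80411970 to 80447625, minus strand. Wif1 (ENSMUSG00000020218) lies on chromosome 10 from 121033960 to 121100650, plus strand. Dkk2 (ENSMUSG00000028031) lies on chromosome 3 from 132085292 to 132180304, plus strand, and Dkk3 (ENSMUSG00000030772) on chromosome 7 from 112116017 to 112159057, minus strand. Reads were counted over whole genes, so the values describe no particular exon or UTR. Only Sfrp2 shares exon positions with another annotated gene, Gm26771 on the opposite strand, and whether the counting used strand was not given in the sources used here, so its reads cannot be told apart from those of that gene.

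The files hold unique molecular identifiers (UMIs), that is, counts of captured RNA molecules per gene and well. Of 23475 wells with a cell, 19999 cells passed the filter of at least 500 genes, and 16445 fell in clusters that could be named from marker genes. Chip totals ran from 11161784 to 133264535 UMIs, and the median passing cell held 9672 UMIs in wild-type hearts and 31904 in knockdown hearts. The chips share the maker's preset well barcodes, so 4683 of 5010 distinct barcodes occurred in more than 1 chip, and cells were kept apart by chip. The 7 members summed to 54055 UMIs in passing cells: 22154 of Sfrp1, 17912 of Dkk3, 6733 of Frzb, 4174 of Sfrp2, 2304 of Wif1, 401 of Sfrp5 and 377 of Dkk2. UMIs were summed per animal and cell class, and a level below is in CPM, the gene's UMIs per 1000000 UMIs of that sum, for sums of at least 20 cells. Levels are compared within a gene and never between genes. The 2 P28 chips without an animal name were taken as 1 animal, here the unnamed P28 animal, and the other P28 animals are called M1, M2, MYH624D_M1 and MYH624D_M2 after the well reports. The other animals are those named in the well reports, for which nothing more is stated, so p-values measure the spread between these sums. In bulk sums of this kind, a lower level can mean fewer cells with the RNA or less RNA per cell, and the shares of cells with a UMI are therefore given as well. Clusters were named from marker lists, so their markers are no independent check of the names: the 9 fibroblast markers summed to 14060 to 37040 CPM in fibroblast-like sums, and to 343 to 2483 in CM-like sums of all 6 groups. CM markers were also found in fibroblast-like sums, at 728 to 12150 CPM in wild-type and 25550 to 50620 in knockdown animals.

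Sfrp1, Sfrp2, Frzb and Dkk3 were carried mainly by fibroblast-like cells at P4, and Sfrp5 and Wif1 were not. At P4 these cells held 35.7% of all UMIs but 94.6% of the Sfrp2 UMIs, 84.1% of Frzb, 62.2% of Sfrp1 and 54.3% of Dkk3. They also held 54.5% of the 101 Dkk2 UMIs, most of these from P4 animal M2. CM-like cells held a further 34.2% of the Dkk3 UMIs and 26.6% of the Sfrp1 UMIs at P4, with 27.7% of all UMIs. Sfrp5 had 64.4% of its P4 UMIs in CM-like cells against 16.9% in fibroblast-like cells, and Wif1 had 41.5% against 41.7%. At P28 fibroblast-like cells held 15.7% of all UMIs, and 64.8% of Frzb, 59.0% of Sfrp1 and 53.1% of Dkk3. Classes were spread unevenly over the 6 P28 chips: 3 chips held 1889 of the 1901 CM-like cells, and 3 held 715 of the 730 fibroblast-like cells. Each of the 2 P4 chips held at least 20 cells of both classes. P28 shares therefore depend on which cells each chip received, and that part was not tested. The other members were distributed differently at P28: CM-like cells held 68.2% of the 173 Wif1 UMIs and 57.1% of the 56 Dkk2 UMIs, and fibroblast-like cells held 2 and 3 of them. Sfrp5, with 39 UMIs, had 28.2% in CM-like and 12.8% in fibroblast-like cells. Sfrp2 had 38.4% in fibroblast-like cells and 37.8% in endocardial-like cells. The endocardial-like level differed widely between the 3 P28 animals with enough cells (mean 14.9, SD 23.6 CPM with globin genes left out of the totals). Cells were clustered on expression, so differences between classes are descriptions without a test.

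**Figure D1:**
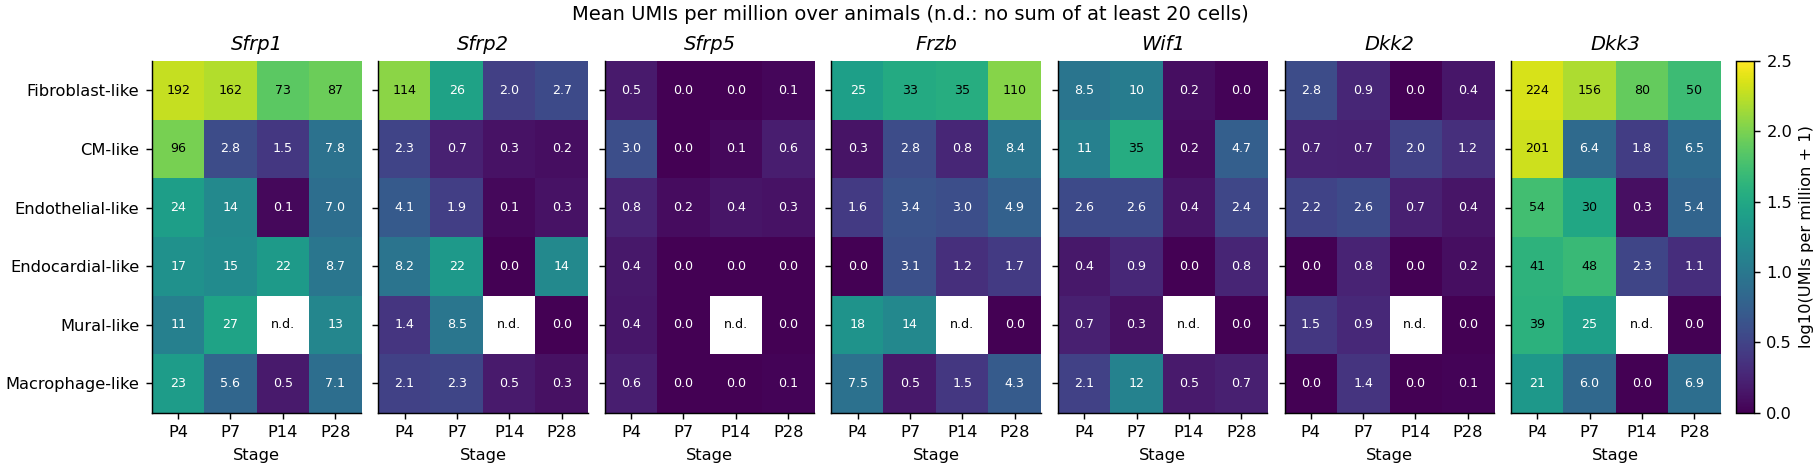
Mean level of each member (CPM of the class sum, averaged over animals) by cell class (rows) and stage (columns); colour is log10 of the level plus 1, and n.d. marks classes with no sum of at least 20 cells. Fibroblast-like cells had the highest mean of Sfrp1 at all 4 stages, from 192 at P4 to 86.6 at P28. CM-like means were near them for Dkk3 at P4 (201 against 224) and above them for Wif1 at P4 (11.3 against 8.46), P7 and P28.

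In wild-type hearts Sfrp1 persisted in fibroblast-like cells at every stage, at a lower level from P14 onward. The 2 P4 animals had 200 and 183 CPM and the P7 animals 162 and 161, whereas the P14 animals had 85.4 and 60.8. The 5 P28 animals gave 107, 90.0, 88.6, 86.1 and 61.5. Every P14 and P28 value lay below every P4 and P7 value, while P14 and P28 overlapped. The means were 192 ± 12.3 (SD, n = 2) at P4 and 86.6 ± 16.2 (SD, n = 5) at P28, a ratio of 2.21. The fall came with rising globin RNA, which took 0.04% of the fibroblast-like UMIs at P4, 15.2% and 19.6% at P14 and 0.243% to 10.5% at P28. With globin genes left out of the totals, an alternative chosen after seeing the data, 74 of the 77 member levels moved by no more than their SD. On that scale the knockdown hearts, also P28, had higher means than the wild-type P28 hearts. They were 157 ± 37.7 (SD, shNT) and 197 ± 3.74 CPM (shJun), against 92.7 ± 14.6 at wild-type P28 and 163 ± 1.41 at P7. The difference between the sets of P28 hearts was not tested. In the P14 animal with 29 fibroblast-like cells, 1 cell held 88.9% of the 36 Sfrp1 UMIs, so its level rests on that cell.

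The steeper loss of Sfrp1 after P4 was in CM-like cells. The P4 animals gave 48.5 and 143 CPM, the P7 animal with at least 20 CM-like cells gave 2.83, and the P14 animals gave 0.788 and 2.28. The 5 P28 animals gave 1.78, 2.27, 4.80, 10.9 and 19.4. Both P4 values lay above all later ones. Over all UMIs, P4 exceeded P14 by 75.8-fold and P28 by 17.9-fold. Only 42 CM-like cells were found at P7, 2 of them with a Sfrp1 UMI, against 93 of 361 at P4, 5 of 417 at P14 and 45 of 1901 at P28. The summed level of fibroblast marker RNA in CM-like cells was 378 to 539 CPM at P4 and 615 to 2483 at P28, and its part in the Sfrp1 levels was not tested.

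Most of the P4 signal in CM-like cells sat in a cluster of 127 cells led by atrial genes (Sln, Myl7, Nppa, Mybphl and Myl4), called Atrial CM-like. In that cluster Sfrp1 reached 92.7 CPM in P4 animal M1 and 379 in P4 animal M2. In the Ventricular CM-like cells of the same animals it reached 9.12 and 29.9, so that the atrial level was 10.2 and 12.7 times as high. The cluster was found at P4 alone: no CM-like cluster of P7, P14 or P28 was named atrial, and the summed level of the 6 atrial markers in CM-like cells went from 17010 and 24460 CPM at P4 to 115 at P7 and 2.66 to 353 later. In the ventricular cells by themselves, Sfrp1 at P4 overlapped the P28 range (2.40 to 15.4). Both P4 values lay above those of P7 (2.80 and 2.83) and P14 (0 and 0), which came from 12 to 30 cells per animal. A Sfrp1 UMI was found in 15.6% and 14.7% of ventricular cells at P4 and in 1.77% to 7.9% at P28, without matching depth. A few cells weighed heavily here, with 48.7% of the 1180 atrial Sfrp1 UMIs of animal M2 in 1 cell.

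**Figure D2:**
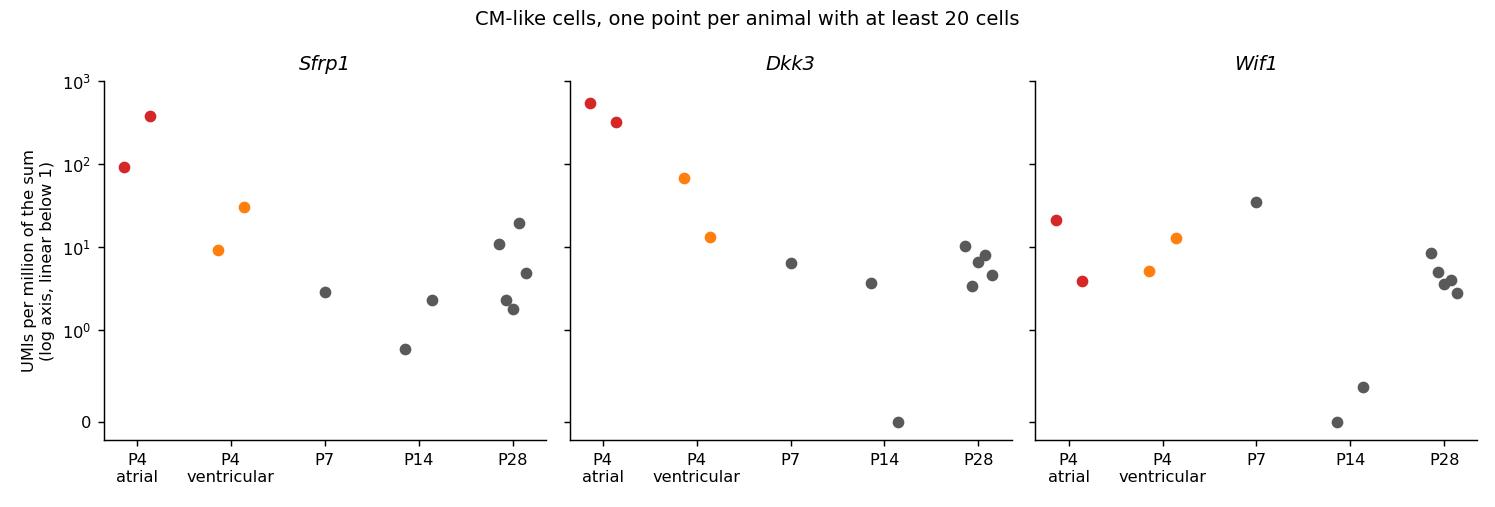
Levels of Sfrp1, Dkk3 and Wif1 (CPM, log axis that is linear below 1) in CM-like cells, 1 point per animal with at least 20 cells; P4 is split into Atrial CM-like (red) and Ventricular CM-like cells (orange). For Sfrp1 and Dkk3 both atrial points lie above all others, while the Wif1 points of P4 and P28 overlap once the P4 cells are split.

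In the other named classes Sfrp1 was lower than in fibroblast-like cells. Endothelial-like cells of the P4 animals gave 41.4 and 6.53 CPM and those of the P7 animals 12.9 and 14.96. The P14 animals gave 0.254 and 0, and the P28 animals 2.72 to 10.7. Endocardial-like, mural-like and macrophage-like means lay between 0.514 and 27.4 over the stages. Among named classes at P4 the order of mean levels was fibroblast-like, CM-like, endothelial-like, macrophage-like, endocardial-like and mural-like. The ranges of endothelial-like, macrophage-like and endocardial-like cells overlapped, whereas those of the other neighbours in that order did not (183 to 200 in fibroblast-like against 48.5 to 143 in CM-like cells). Cells in unnamed clusters gave 39.9 and 191 at P4, 54.8 and 72.1 at P7, and 16.2, 27.5, 27.96, 75.2 and 250.1 at P28, where 1 cell held 83.8% of the UMIs of the highest animal. They held 16.3% of the P28 Sfrp1 UMIs with 7.03% of all UMIs, and fibroblast marker RNA stood at 2118 to 3153 CPM in them at P4 and 4405 to 12680 at P28.

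Sfrp2, a Wnt-binding protein linked to extracellular matrix and fibroblasts, was lower at each later stage up to P14 in wild-type fibroblast-like cells. Its levels were 141 and 87.2 CPM at P4, 21.7 and 31.0 at P7, and 2.25 and 1.69 at P14. At P28 the animals gave 0, 0.895, 2.65, 4.27 and 5.55. No stage before P14 overlapped another, and P14 lay within the P28 range. Between P28 and P4 the log2 change was -5.07 (SE 0.81), with an adjusted p of 0.00324 by edgeR's quasi-likelihood test over 13412 genes (Benjamini-Hochberg). Without P4 animal M1 the adjusted p was 0.0798, and 1 cell held 39.3% of that animal's 1482 Sfrp2 UMIs. It was 0.447 with cells that carry markers of another class left out (CM and erythroid markers aside), a setting chosen after seeing the data.

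Wif1, which binds Wnt ligands through its own domain, all but left the fibroblast-like cells of wild-type hearts. P4 gave 13.7 and 3.24 CPM, P7 gave 10.2 and 10.2, and P14 gave 0.450 and 0. At P28, 4 animals were at 0 and the unnamed animal gave 0.236, from 2 UMIs. All P14 and P28 values of wild-type hearts lay below all P4 and P7 values. The knockdown hearts, also P28, held 47 Wif1 UMIs in 283 shNT fibroblast-like cells and 72 in 327 shJun cells. With globin genes left out of the totals, their means were 2.45 ± 1.12 (SD) and 3.79 ± 4.49 CPM, against 0.0527 in wild-type P28 hearts. This difference between the sets of P28 hearts was not tested. Over all UMIs, P4 exceeded P28 by 57.2-fold, with a 95% counting interval of 15.6 to 476 that covers counting error only. The edgeR adjusted p for P28 against P4 was 0.0187, and it rose to 0.404 without P4 animal M1, 0.0662 without P4 animal M2 and 0.0766 without the unnamed P28 animal. Without a small P4 cluster led by Fmod, described further on, it was 0.0706, and without cells that carry markers of another class (CM and erythroid markers aside) it was 0.577.

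These were the members called in fibroblast-like cells. Sfrp2 and Wif1 were 2 of the 4 members tested besides Sfrp1, both lower at P28 than at P4, where 1.51% of all genes tested were called lower, 0.962% higher and 2.47% in either direction. Dkk2 and Sfrp5 did not pass the filter on low counts. Between neighbouring stages 0 of the 4 were called, with 0.0298% of all genes called from P4 to P7, 0.701% from P7 to P14 (0.5% higher, 0.201% lower) and 0.0596% from P14 to P28 (0.00746% higher, 0.0522% lower). At P14 against P7, edgeR gave Sfrp2 an adjusted p of 0.223 and Wif1 an adjusted p of 0.234, the 2 members under an unadjusted threshold of 0.05. In the other neighbouring pairs 0 members passed that threshold. DESeq2 called Sfrp2 lower at P14 than at P7 (adjusted p 0.0414) and 0 members in the other neighbouring pairs, and its share of all genes called was not computed. Over all genes tested the log2 changes had a median of -0.23 from P7 to P14, 0.30 from P14 to P28 and 0.05 from P4 to P28.

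**Figure D3:**
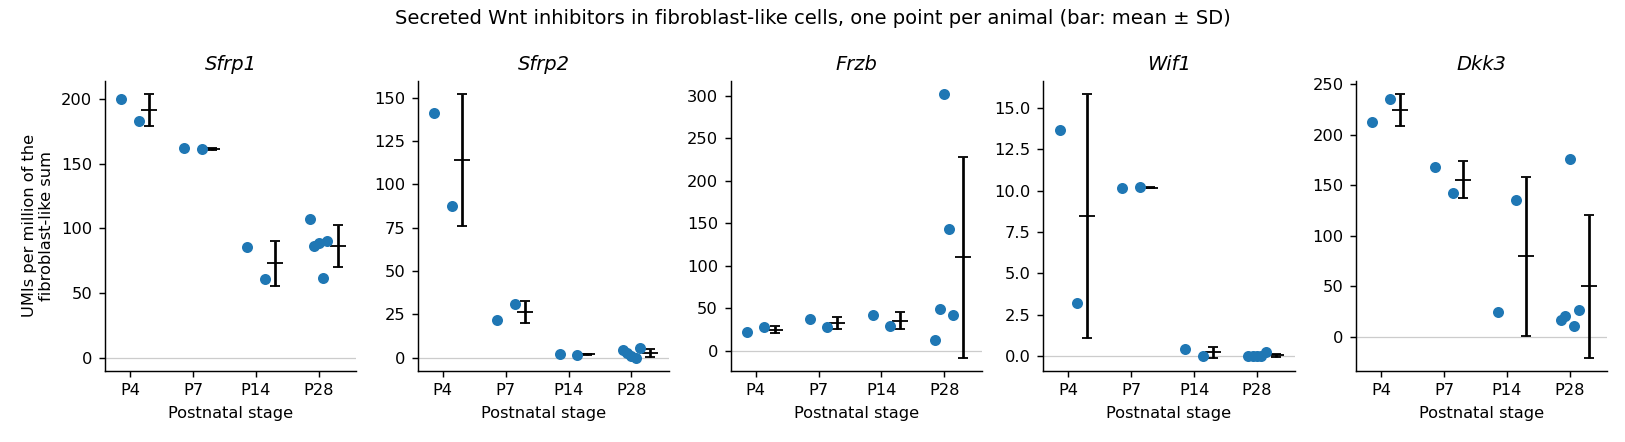
Levels of 5 members in wild-type fibroblast-like cells (CPM of the sum) at P4, P7, P14 and P28. Each point is 1 animal, and the black bar is the mean with its SD over 2, 2, 2 and 5 animals. Sfrp2 and Wif1 reach the bottom of their axes from P14 on, Sfrp1 settles near 86.6 at P28, and Frzb and Dkk3 each have P28 animals far from the others.

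Frzb, a secreted frizzled-related protein first known from cartilage, did not fall. Fibroblast-like cells gave 21.7 and 27.9 CPM at P4, 37.4 and 27.7 at P7, and 42.3 and 28.7 at P14. The P28 animals gave 12.8, 42.6, 49.0, 143 and 302, a range that holds every earlier value. The log2 change from P4 to P28 was 2.38 (SE 0.98) with an edgeR adjusted p of 0.314, so a rise was not detectable at this depth and animal number. The share of fibroblast-like cells with a Frzb UMI was 10.98% at P4 and 15.5% at P28. In CM-like cells, Frzb gave 0.161 and 0.520 at P4 and 1.89, 2.07, 2.10, 9.12 and 26.9 at P28, all 5 above both P4 animals. The log2 change was 4.61 (SE 1.37) with an edgeR adjusted p of 0.0556, while DESeq2 gave an adjusted p of 0.00211. It was 0.0433 by edgeR without MYH624D_M1. In the highest P28 animal 1 cell held 85.6% of the Frzb UMIs. Without cells that carry markers of another class, the Frzb mean in CM-like cells was 1.88 CPM at P4 and 0 at P28 (145 cells of 3 animals), and with CM and erythroid markers allowed it was 1.43 and 1.75.

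Sfrp5 was nearly absent, with 401 UMIs in all passing cells. At P4, 38 of its 59 wild-type UMIs were in CM-like cells, and 33 of these came from the Atrial CM-like cells of animal M1, 28 of them from 1 cell. Fibroblast-like cells gave 10 Sfrp5 UMIs at P4, 0 at P7 and P14, and 5 at P28, all 5 from 1 cell. In CM-like cells the P28 values (0 to 1.89) overlapped the P4 values (5.62 and 0.312), with an edgeR adjusted p of 0.411.

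Between P4 and P28, Wif1 changed less in CM-like than in fibroblast-like cells (2.81-fold against 57.2-fold over all UMIs). This did not hold at P14, where P4 exceeded P14 by 71.2-fold in CM-like and 24.3-fold in fibroblast-like cells. Each of these P14 levels rests on 1 UMI. In CM-like cells Wif1 gave 12.7 and 9.99 CPM at P4, 34.7 in the P7 animal, 0 and 0.379 at P14, and 2.81, 3.55, 3.99, 4.92 and 8.47 at P28. Both P4 values lay above the P28 range, and P14 lay below it. The log2 change from P4 to P28 was -0.9996 (SE 0.67), with an edgeR adjusted p of 0.401. The P28 signal was spread over 52 of 1901 cells, whereas at P7 1 cell held 67.3% of the UMIs. In endothelial-like cells Wif1 had no detectable change (P4 4.33 and 0.968, P28 0 to 11.1).

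Dkk3, the divergent Dickkopf family member, was present in all named classes of P4 with enough cells, with means from 20.6 CPM in macrophage-like to 224 in fibroblast-like cells, and fell in CM-like and endothelial-like cells. In CM-like cells it gave 290 and 112 CPM at P4, 6.37 in the P7 animal, 3.68 and 0 at P14, and 3.41, 4.52, 6.51, 7.98 and 10.2 at P28. Both P4 values lay far above all the others. The log2 change from P4 to P28 was -4.69 (SE 0.58), with an edgeR adjusted p of 0.000291. Dkk3 was the 1 member called of 5 tested in this class, where 5.99% of all genes were called in either direction, 3.25% higher and 2.74% lower. As for Sfrp1, the Atrial CM-like cluster carried most of it: 539 and 316 there, against 68.1 and 13.3 in Ventricular CM-like cells. With the Atrial CM-like cells left out, a setting chosen after seeing the data, the log2 change was -2.42 with an edgeR adjusted p of 0.0741, and with all cells left out that carry markers of another class it was -2.82 with an adjusted p of 0.158. Both ventricular P4 values still lay above the 5 P28 values, and in animal M1 1 cell held 78.6% of the ventricular Dkk3 UMIs.

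In fibroblast-like cells Dkk3 gave 213 and 236 at P4, 169 and 143 at P7, and 24.3 and 135 at P14. The P28 animals gave 10.5, 16.4, 21.2, 27.1 and 176. All P28 values lay below both P4 values, with a log2 change of -1.97 (SE 0.81) and an edgeR adjusted p of 0.314. The high P28 animal was MYH624D_M1, in which 1 of 66 cells held 65.5% of the 197 UMIs. Without that animal the log2 change was -3.40 with an edgeR adjusted p of 0.00311, and with each cell thinned to at most 5000 UMIs it was -1.91 with an adjusted p of 0.0465. In these cells the atrial marker RNA stood at 1458 to 1569 CPM at P4 and 2.65 to 21.4 at P28, and CM marker RNA at 10270 to 12150 and 728 to 3438, and their part in the levels was not tested. Counting each cell at most 1 time per gene, a setting chosen after seeing the data, gave a log2 change of -1.61 and an edgeR adjusted p of 2.86e-08 over the number of cells with a UMI. The share of all genes called under that setting was not computed.

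Endothelial-like cells, the lining of vessels, showed the same direction for Dkk3. The P4 animals gave 70.3 and 38.2 CPM and the P7 animals 33.7 and 26.6. The P14 animals gave 0.508 and 0, and the P28 animals 1.98, 3.63, 6.80, 7.24 and 7.31. The P4 and P7 values lay above all P14 and P28 values. The log2 change from P4 to P28 was -3.05 (SE 0.71), with an edgeR adjusted p of 0.0424, the 1 member called of 5 tested (1.52% of all genes called in either direction, 0.619% higher and 0.906% lower). The call was close to the threshold: leaving out P4 animal M1 gave an adjusted p of 0.430, leaving out P4 animal M2 gave 0.153, and leaving out any P28 animal but MYH624D_M1 gave 0.0546 to 0.0788. It was 0.199 with sums per chip, 0.0806 for cells with at least 1000 genes, 0.132 with cells thinned to 5000 UMIs and 0.456 without cells that carry markers of another class (CM and erythroid markers aside). Fibroblast marker RNA was present in these sums (804 to 1479 CPM at P4 and 1189 to 3172 at P28), and its part in the result was not tested. RNA of the 6 atrial markers, high in the P4 cells that carried most Dkk3, was also found in the endothelial-like sums at 1693 and 2285 CPM at P4 and 8.15 to 44.4 at P28, and its part was not tested either.

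Dkk2, an antagonist at the Lrp co-receptors, was rare. Its 101 wild-type UMIs at P4 included 55 in fibroblast-like cells, 52 of them from animal M2, and its 56 UMIs at P28 included 32 in CM-like cells, found in 9 of 1901 cells. In CM-like cells it gave 1.45 and 0 at P4 and 0 to 2.28 at P28 (edgeR adjusted p 0.763). In endothelial-like cells it gave 3.71 and 0.726 at P4 and 0 to 0.907 at P28 (edgeR adjusted p 0.461). The values of the stages overlapped in both classes.

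The share of cells with a UMI was read next, because 1 cell often held much of a sum. In fibroblast-like cells, Dkk3 was seen in 43.4% of 783 P4 cells (95% Clopper-Pearson interval 39.9% to 47.0%) and 43.7% of P7 cells, against 12.8% of P14 cells and 13.2% of P28 cells (10.8% to 15.8%). Sfrp1 was seen in 35.6% (32.3% to 39.1%), 39.3%, 17.3% and 27.1% (23.9% to 30.5%) of cells at these stages. Sfrp2 was seen in 18.5%, 10.6%, 3.01% and 2.60%, and Wif1 in 2.94%, 3.13%, 0.752% and 0.274%. The shares of Sfrp1, Sfrp2, Wif1 and Dkk3 were lower at P28 than at P4, and that of Frzb was not. These shares pool the cells of all animals, and the unnamed P28 animal gave 457 of the 730 P28 cells. The intervals and all limits from a count of 0 cover counting error only.

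Depth differed, with a median of 14688 UMIs per fibroblast-like cell at P4 and 10380 at P28, so each cell was also thinned to 1000 UMIs, which left out 2 and 7 shallower cells. The thinned shares at P4 and P28 were 14.9% and 3.73% for Dkk3, 12.0% and 7.88% for Sfrp1, and 5.76% and 0.138% for Sfrp2. For Frzb they were 1.92% (1.08% to 3.15%) and 4.15% (2.82% to 5.87%), higher at P28 with intervals that overlap. In CM-like cells the thinned Sfrp1 share was 4.71% at P4, 0 of 42 cells at P7 (which allows up to 7.14%), 0.719% at P14 and 0.527% at P28, against 25.8%, 4.76%, 1.20% and 2.37% unthinned. In endothelial-like cells the unthinned Sfrp1 share was 9.29% at P4 and 4.08% at P28, at median depths of 11721 and 7132 UMIs against 23654 and 8015 in CM-like cells. The CM-like share lay above the endothelial-like share at P4, also when thinned (4.71% against 1.19%), and below it at P28, and no expression is read from the P28 share in CM-like cells. The 90 control wells without a cell held 2 Sfrp1 UMIs in 2 wells and 0 of every other member, at a median of 198 UMIs per well.

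**Figure D4:**
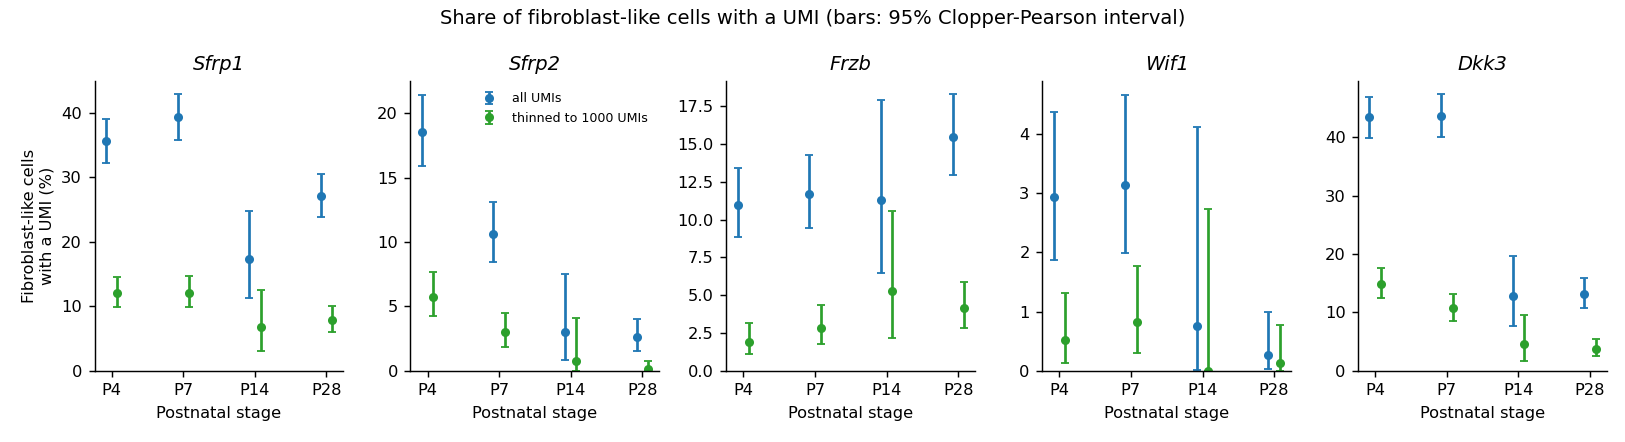
Percentage of fibroblast-like cells with at least 1 UMI of each of 5 members at P4, P7, P14 and P28, from all UMIs (blue) and after thinning each cell to 1000 UMIs (green); bars are 95% Clopper-Pearson intervals. Dkk3 and Sfrp2 fall on both scales, Sfrp1 falls less, and Frzb does not fall on either.

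Among the P4 fibroblast-like cells, a cluster of 48 cells stood out for several members. It was led by Fmod, Prg4, Npy and C3 and scored higher for the epicardial marker list than for the fibroblast list, but fewer than 3 epicardial markers were detected in at least 20% of its cells, so it kept the fibroblast-like name. Dcn was detected in all 48 of these cells, and in 97.3% and 97.0% of the other fibroblast-like cells of animals M1 and M2. The fibroblast marker Pdgfra was lower in the cluster (31.3 and 29.8 CPM against 82.2 and 153). Msln, an epicardial marker, was detected in 4 of the 32 cells of animal M1 and 4 of the 16 of animal M2. The cluster held 83.9% and 98.2% of the animals' fibroblast-like Msln UMIs and 92.2% and 90.6% of Upk3b, but 25.0% and 1.01% of Wt1. Dkk3 stood at 597 and 742 CPM in the cluster of the respective animals, against 180 and 212 in their other fibroblast-like cells. Wif1 stood at 124 and 23.0 against 4.23 and 2.33, and the cluster held 71.5% and 31.3% of the animals' fibroblast-like Wif1 UMIs. Sfrp2 and Sfrp1 were also higher there in both animals (235 and 223 against 133 and 80.9 for Sfrp2, 263 and 360 against 195 and 175 for Sfrp1). Frzb was lower there in both (4.81 and 6.89 against 23.1 and 28.8). Without the cluster, a setting chosen after seeing the data, Sfrp2 remained called lower at P28 (log2 change -4.98, edgeR adjusted p 0.00370) and Wif1 did not.

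Single fibroblast-like cells rarely carried many members. At P4, 30.7% of the 783 cells had none of the 7, 35.6% had 1, 24.9% had 2 and 8.81% had 3 or more. At P7 the shares were near these, with 30.5% of 735 cells having none. At P28 52.6% of 730 cells had none, 36.6% had 1, 9.86% had 2 and 0.959% had 3. Across the 69 wild-type sums of all classes, the levels of Sfrp1 and Dkk3 went together most closely among the members (Pearson's r = 0.72), and Frzb and Wif1 did not go together (r = -0.03). These sums share chips and animals and differ in class, so the correlations are descriptions. Of 17434 genes, the most similar to Sfrp1 was Fbln1, a matrix protein (r = 0.77), followed by Sdc2 and Postn. For Dkk3 it was Postn, the matricellular protein periostin (r = 0.75), followed by Ptn and Gap43. For Sfrp2 it was Ccn3 (r = 0.71) and for Frzb it was Fibin (r = 0.72), and for Wif1 and Dkk2 the closest were Gstm7 (r = 0.63) and Col12a1 (r = 0.48).

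The rest of the Wnt pathway gave 1 call in each of the 3 classes between P4 and P28. Of 73 listed genes, 36 were tested in fibroblast-like cells, and 1 of them was called between P4 and P28, beside 2.47% of all genes. Rspo3, a secreted protein that strengthens Wnt signalling, was lower at P28 (log2 change -5.54, SE 1.21, edgeR adjusted p 0.0239). It was 1 of 3 tested genes of the R-spondin axis, and it was among the 10 leading genes of the P4 cluster led by Fmod. The other tested genes were 6 Wnt ligands, 2 secretion genes, 13 receptors and co-receptors, 9 core components and 3 feedback targets. In endothelial-like cells 1 of 46 tested genes was called beside 1.52% of all genes, the cyclin gene Ccnd1, a feedback target (log2 change -1.59, SE 0.32, edgeR adjusted p 0.0166). In CM-like cells 1 of 42 was called beside 5.99% of all genes, Wls, which carries Wnt ligands to the cell surface (log2 change -1.62, SE 0.45, edgeR adjusted p 0.0420). The median log2 change of the Wnt ligands tested was 1.03 in fibroblast-like, 1.48 in endothelial-like and 0.80 in CM-like cells, beside medians over all genes of 0.05, 0.09 and 0.06.

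The knockdown hearts addressed whether Jun, a transcription factor of the AP-1 family, bears on these genes. Jun itself stood at 53.3 and 61.0 CPM in the CM-like cells of the shNT animals and 25.8 and 30.7 in those of the shJun animals, without overlap. The log2 change was -1.10 (SE 0.23), with an unadjusted p of 0.00272 and an adjusted p of 0.9998 by edgeR over 17442 genes. In fibroblast-like and endothelial-like cells the log2 change of Jun was 0.35 (SE 0.43) and 0.05 (SE 0.59), with edgeR adjusted p of 0.999 and 0.998. The tdTomato transcript counted 0 to 8 UMIs in the CM-like sums of these animals, against 2084 and 3214 in the P4 CM-like sums, although the labels give the same strain.

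No member passed the test between shJun and shNT hearts. In simulated data this test recovered 4.69%, 0% and 23.4% of log2 changes of 2 in fibroblast-like, endothelial-like and CM-like cells. The absence of calls therefore says little about changes of that size. In fibroblast-like cells Sfrp1 gave 126 and 174 CPM with shNT and 177 and 195 with shJun, Dkk3 gave 14.8 and 83.6 against 113 and 44.7, and Frzb gave 58.7 and 25.5 against 106 and 33.3. Both shJun animals were above both shNT animals for Sfrp1, while Dkk3 and Frzb overlapped. How many of all genes separate 2 animals from 2 in this way was not counted. Separation of the knockdown animals is therefore a description without a test. The log2 change of Sfrp1 was 0.22 (SE 0.44), with an edgeR adjusted p of 0.999. In endothelial-like cells Sfrp1 gave 12.8 and 3.82 with shNT and 29.1 and 21.7 with shJun, again without overlap (log2 change 1.46, SE 1.12, edgeR adjusted p 0.979). By edgeR, 0 members were called in each of the 3 classes, beside 0% of all genes, with 680, 666 and 596 genes under an unadjusted threshold of 0.05 in fibroblast-like, endothelial-like and CM-like cells. Besides Sfrp1, 4, 3 and 5 members were tested in these classes, and Sfrp2 in endothelial-like and CM-like cells was the member under that threshold. DESeq2 called 0 members in any class.

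Sfrp2 was the member with the smallest unadjusted p in this comparison. Endothelial-like cells held 3 and 0 Sfrp2 UMIs in the shNT animals and 17 and 38 in the shJun animals (unadjusted p 0.0389, adjusted p 0.953 by edgeR). CM-like cells gave 0.311 and 0.0896 CPM with shNT and 0.439 and 2.34 with shJun (unadjusted p 0.0460, adjusted p 0.9998 by edgeR), and in the higher shJun animal 1 cell held 77.9% of them. Sfrp5 in CM-like cells gave 0.685 and 0.224 with shNT and 0.0775 and 2.89 with shJun, and 1 cell held 88.8% of the 179 UMIs of the highest animal. Wif1 in CM-like cells gave 5.82 and 5.53 with shNT and 3.51 and 3.88 with shJun, without overlap (log2 change -0.70, SE 0.42, edgeR adjusted p 0.9998). CM marker RNA was high in the fibroblast-like sums of all 4 knockdown animals, at 25550 to 50620 CPM against 728 to 3438 in wild-type P28 animals, and its part in these results was not tested.

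**Figure D5:**
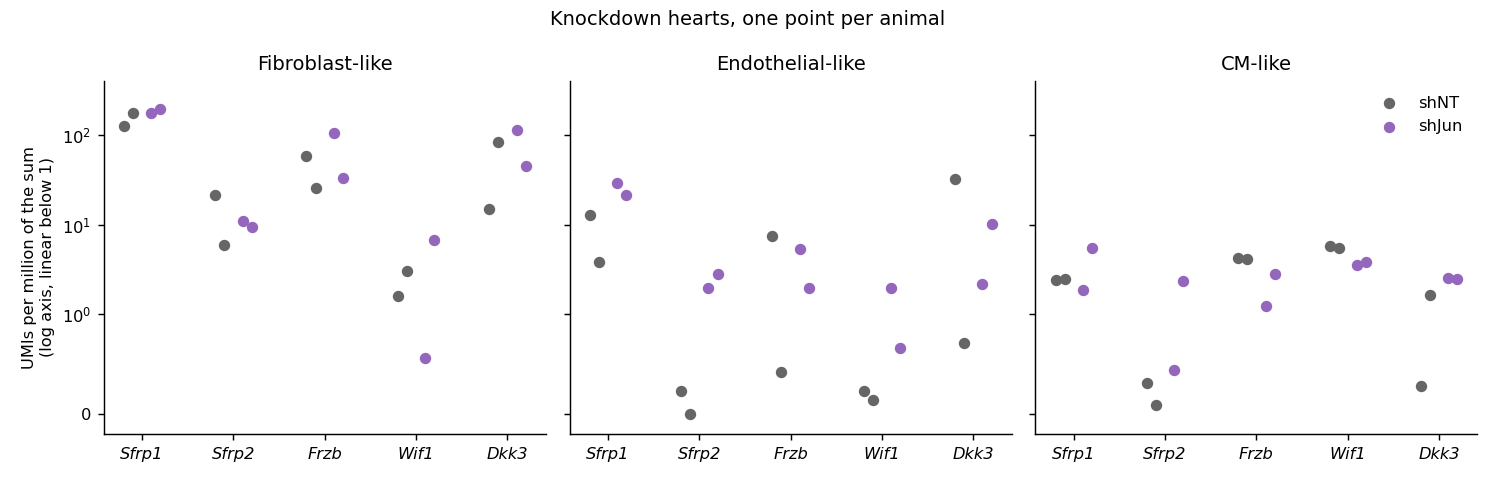
Levels of 5 members (CPM, log axis that is linear below 1) in fibroblast-like, endothelial-like and CM-like cells of 2 shNT (grey) and 2 shJun (purple) animals, 1 point per animal. In fibroblast-like cells Sfrp1 lies between 126 and 195 in all 4 animals. The shJun points of Sfrp2 lie above the shNT points in endothelial-like and CM-like cells, but not in fibroblast-like cells. No member passed the test in these classes.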

How the data were processed

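Single-cell RNA-seq was made on the ICELL8 system from 12 wild-type and 6 knockdown chips. Per the labels, the authors aligned reads to mm10 with STAR 2.5.2b and used featureCounts and Subread 1.4.6-p1. The deposited matrices are raw UMI counts per gene and well, with well reports naming the animal or hairpin. A gene without a column in a chip (Sfrp5 in 1 P14 chip, Sfrp2 in 1 P28 chip) was read as 0. Cells with at least 500 genes (and outlying depth removed at 2 SD) were clustered without the members in Python 3.11.15 (scikit-learn 1.9.0, leidenalg 0.10.2; 20 components, 20 neighbours, resolution 1.5), and clusters were named from fixed marker lists. No doublet caller was run, and cells with markers of several classes were left out as an alternative. UMIs were summed per animal and class, and tested with edgeR 4.0.16 (TMM, filterByExpr, quasi-likelihood, Benjamini-Hochberg, threshold 0.05) in R 4.3.3, with DESeq2 1.42.0 as an alternative. Stages of a class shared 1 fit. The P28 against P4 and shJun against shNT tests were run on simulated data with known changes. Log2 changes of 1 were recovered in 0% of genes in every comparison. Those of 2 were recovered in 13.3%, 9.84% and 21% between stages, in fibroblast-like, endothelial-like and CM-like cells. Log2 changes of 4 were recovered in 56.2%, 63.5% and 69.8% between stages, and in 49.2%, 13.8% and 75.4% between hairpins. Members and gene lists were chosen with earlier results of these data known. The text names the 7 members everywhere, the listed Wnt genes that passed a test, and the 3 genes most like each member. Shares carry exact 95% intervals, and the limit of a 0 is 3 counts. Each set of 3 knockdown chips held 1 animal of each hairpin by the well reports, and same-set animals deviated together with r = 0.14, 0.03 and 0.47 in fibroblast-like, endothelial-like and CM-like cells.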

Additional observations from a re-analysis of the deposited data

Results flagged for a closer look

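In 14 groups of the 5 P28 animals with enough UMIs, the gap between the most extreme animal and the next was compared with the whole range, and 3 groups exceeded the 95% critical value of 0.71, where chance alone gives about 1 in 20. Dkk3 in fibroblast-like cells was 176 CPM in MYH624D_M1 against a group median of 21.2, a gap of 0.900 of the range. Frzb in CM-like cells was 26.9 CPM in P28 animal M1 against a median of 2.10, a gap of 0.711 of the range. Wif1 in endothelial-like cells was 11.1 CPM in P28 animal M1 against a median of 0.198, a gap of 0.940 of the range. In these sums 1 cell held 65.5%, 85.6% and 53.9% of the UMIs, respectively.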

How the results depend on the processing

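Counts of members called changed as follows, and the cause was not tested unless the setting itself shows it. The share of all genes called was computed for the main edgeR setting only. Counts under the other settings therefore have no such share beside them. For fibroblast-like P28 against P4, the 2 calls became 0 with cells holding markers of another class left out (CM and erythroid markers aside), 1 without the P4 cluster high in epicardial markers, and 0 to 3 with 1 animal left out. DESeq2 gave 1 call for P14 against P7. With each cell counted at most 1 time per gene, P7 against P4 (Sfrp2) and P14 against P7 (Dkk3) each gave 1 call. The endothelial-like Dkk3 call became 0 with sums per chip, with at least 1000 genes per cell, with cells thinned to 5000 UMIs and without cells holding other markers (CM and erythroid ones aside), and 0 to 1 with 1 animal left out. In CM-like cells the 1 call became 2 (Frzb added) with DESeq2 and with no filter on low counts, 0 without cells holding markers of another class, 0 without Atrial CM-like cells, and 1 to 2 with 1 animal left out. With 1 animal left out, the log2 change of Wif1 in endothelial-like cells (0.15) ranged from -2.89 (without P28 animal M1) to 1.57, with -0.57 without P4 animal M2, and that of Dkk2 in CM-like cells (0.99) from -0.0286 (without P4 animal M2) to 5.57. The settings that count each cell at most 1 time, drop a named cluster, leave out globin genes or allow CM and erythroid markers were chosen after seeing the data. Leaving out all cells with markers of another class left no fibroblast-like or endothelial-like sum of at least 20 cells and could not be fitted there, as in the knockdown cells.

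Of 77 member levels in the 3 main classes, 9 of the 14 that could be computed stayed within their SD without cells holding markers of another class, and 48 of 77 did so when CM and erythroid markers were allowed. Of 84 shares, 80 were above 0, and 50 after thinning to 1000 UMIs. Every knockdown count was 0 under each setting run, and with the chip set as a replicate block it was 0 in all 3 classes. No paired analysis was possible for the stages because no chip holds animals of more than 1 stage and the labels pair none of them. Depth limits the rare members, since 1 cell often holds most of a sum.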
